A study of Mus musculus with 4 samples.

Results

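Ribosome biogenesis and rRNA processing genes were compared between Dis3 conditional knockout (KO) and control (WT) testes of B6D2F1 mice at postnatal day 17, with 2 libraries per genotype. The gene set was chosen by symbol, as a list of RNA polymerase I genes, small nucleolar ribonucleoprotein (snoRNP) genes and genes of processing factors for the small and the large ribosomal subunit. It held 56 of the 54232 genes in the count table, and each symbol matched exactly 1 gene. The KO libraries carry the genotype Dis3 KO, described in the series as a conditional knockout, and the WT libraries carry the genotype Dis3 WT. Both genotypes share strain, tissue and age. The Cre driver is not given in the sources used here, so the cells that lost Dis3 are known only as cells of the testis, and whole testes, which hold germ and somatic cells, were sequenced. Whether the libraries of a genotype came from separate animals is not stated, so p-values measure only the spread between these libraries, which may be technical.

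Ribosomes are assembled in the nucleolus from a long rRNA precursor made by RNA polymerase I. Box C/D snoRNPs guide ribose methylation of that precursor and box H/ACA snoRNPs guide its pseudouridylation, while large sets of helicases, GTPases and scaffold proteins cut, fold and package it into the small and the large subunit. The Dis3 protein is a nuclease of the RNA exosome, which trims rRNA precursors at their 3′ ends and degrades the excised spacers as well as many short-lived nuclear RNAs. In the mouse testis at this age the most advanced germ cells are in the long prophase of meiosis. The tables analysed here count reads of genes, not of the rRNA precursor, so the results concern the mRNAs of the assembly machinery and not its product.

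Promoter sequences are shown for 4 genes to put letters beside the values that follow. Taf1b had the lowest log2 fold change of the set and Polr1a the highest, Utp18 was lower in KO and holds both sets of letters searched, and Gar1 had more antisense reads upstream in KO. RefSeq windows from 250 bases before to 50 bases after a gene start (GRCm38.p6) were found for 51 of the 56 genes, 62 windows in all, and not for Fbl, Rrp12, Npm1, Utp6 and Bop1. The letters searched were CACGTG, the E-box preferred by Myc family factors, which reads the same on both strands, and CCGGAAG, the core of many ETS family sites, taken on either strand. No stretch of letters can be both, and each was counted on its own. Capitals mark the E-box letters, the ETS letters and the reverse complement of the ETS letters, CTTCCGG. Windows lie at chr12:24498331-24498630 (plus strand) for Taf1b, chr6:71908803-71909102 (plus strand) for Polr1a, chr11:93885717-93886016 (minus strand) for Utp18 and chr3:129831347-129831646 (minus strand) for Gar1, and each is written 5′ to 3′ on the strand of its gene.
Taf1b: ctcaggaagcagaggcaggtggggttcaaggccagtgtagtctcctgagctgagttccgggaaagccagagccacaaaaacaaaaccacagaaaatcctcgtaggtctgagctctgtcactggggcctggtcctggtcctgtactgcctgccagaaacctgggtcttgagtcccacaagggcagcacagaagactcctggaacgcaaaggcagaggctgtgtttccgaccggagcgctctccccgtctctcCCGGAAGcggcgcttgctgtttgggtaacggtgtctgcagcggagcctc
Polr1a: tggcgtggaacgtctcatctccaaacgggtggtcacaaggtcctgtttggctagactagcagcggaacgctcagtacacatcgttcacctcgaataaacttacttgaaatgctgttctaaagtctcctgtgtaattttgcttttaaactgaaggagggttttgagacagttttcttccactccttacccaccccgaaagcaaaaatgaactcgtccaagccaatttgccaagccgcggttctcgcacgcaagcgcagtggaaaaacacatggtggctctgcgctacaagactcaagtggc
Utp18: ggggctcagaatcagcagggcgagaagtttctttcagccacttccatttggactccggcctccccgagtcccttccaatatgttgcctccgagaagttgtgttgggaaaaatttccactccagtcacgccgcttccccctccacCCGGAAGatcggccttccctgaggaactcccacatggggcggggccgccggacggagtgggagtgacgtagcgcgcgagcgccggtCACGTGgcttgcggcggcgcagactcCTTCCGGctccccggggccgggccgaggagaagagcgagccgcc
Gar1: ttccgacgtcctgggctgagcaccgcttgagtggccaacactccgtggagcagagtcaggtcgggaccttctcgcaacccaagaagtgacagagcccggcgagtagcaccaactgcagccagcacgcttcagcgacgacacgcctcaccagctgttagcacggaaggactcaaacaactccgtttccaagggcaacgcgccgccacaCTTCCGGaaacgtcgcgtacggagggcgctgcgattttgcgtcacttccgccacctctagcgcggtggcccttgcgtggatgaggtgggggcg

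CACGTG was present in 9 of the 62 windows (14.5%), against 7.15% of all 32851 mouse windows. CCGGAAG was present in 22 windows (35.5%), against 8.86% of all. The median GC content of the windows was 57.0%, against 52.7% for all windows. By gene, 9 of the 51 genes (17.6%) held CACGTG and 21 (41.2%) held CCGGAAG, against 8.09% and 9.93% of all genes. All genes here include ones outside the genes tested, whereas the 51 are all well expressed. Shares among well expressed genes alone were not computed, so these gaps may not be particular to the set. Genes with and without the letters had like medians, and the difference was not tested. With CCGGAAG, 14 of 21 genes were lower in KO and the median log2 fold change was -0.28, and without it 17 of 30 were lower with a median of -0.21. With CACGTG, 6 of 9 were lower (median -0.21), and without it 25 of 42 (median -0.25). These letters are a description of the windows and not evidence that a factor binds there.

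The gene table held 17663416 and 19255782 reads in KO replicates 1 and 2 and 31031920 and 40329170 reads in WT replicates 1 and 2. Expression is given as CPM, the read count relative to library size, with library sizes scaled by edgeR's trimmed mean of M-values (TMM), and log2 fold changes are KO over WT with their SE. A gene was called lower or higher where edgeR's quasi-likelihood test gave an adjusted p (Benjamini-Hochberg over all 25076 genes tested) under 0.05. Dis3 itself had 39.6 and 42.9 CPM in KO, against 80.2 and 80.7 CPM in WT (log2 fold change -0.96 ± 0.0729, adjusted p = 2.34e-09 by edgeR's quasi-likelihood test). Reads were counted over all exons of the gene and all cells of the testis. Reads in regions upstream of genes too low to be tested were taken as a measure of background. It amounted to 3.02 and 3.39 reads per kilobase in KO replicates 1 and 2 and 2.73 and 2.53 in WT replicates 1 and 2, and each of the 56 genes held at least 15.8 times that many reads in every library.

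Expression of the set was modestly lower in KO testes. All 56 genes passed the filter on low counts and had a mean of at least 10 CPM. Of these, 34 were lower in KO, 2 were higher (Polr1a and Noc2l) and 20 did not pass the test. Over all genes tested, 20.3% were called lower and 11.6% higher. Well expressed genes are the closer comparison, since all members are well expressed: of the 10729 genes with a mean of 10 CPM or more, 42.0% were called lower and 9.03% higher, against 60.7% and 3.57% of the 56. The median log2 fold change was -0.25 over the 56 genes, with a range of -0.58 to 0.25, against -0.16 over the well expressed genes and 0.05 over all genes tested. The sum over the 56 genes was 6126 and 5988 CPM in KO, against 6933 and 6952 CPM in WT, and the genotypes did not overlap. For 45 genes (80.4%) both KO libraries lay below both WT libraries, for 5 (8.93%) both lay above, and for 6 the genotypes overlapped. The same orders held for 58.2% and 19.9% of the well expressed genes and for 32.7% and 35.6% of all genes tested. In bulk tissue, fewer cells of a type and less RNA per cell cannot be told apart.

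**Figure D1:**
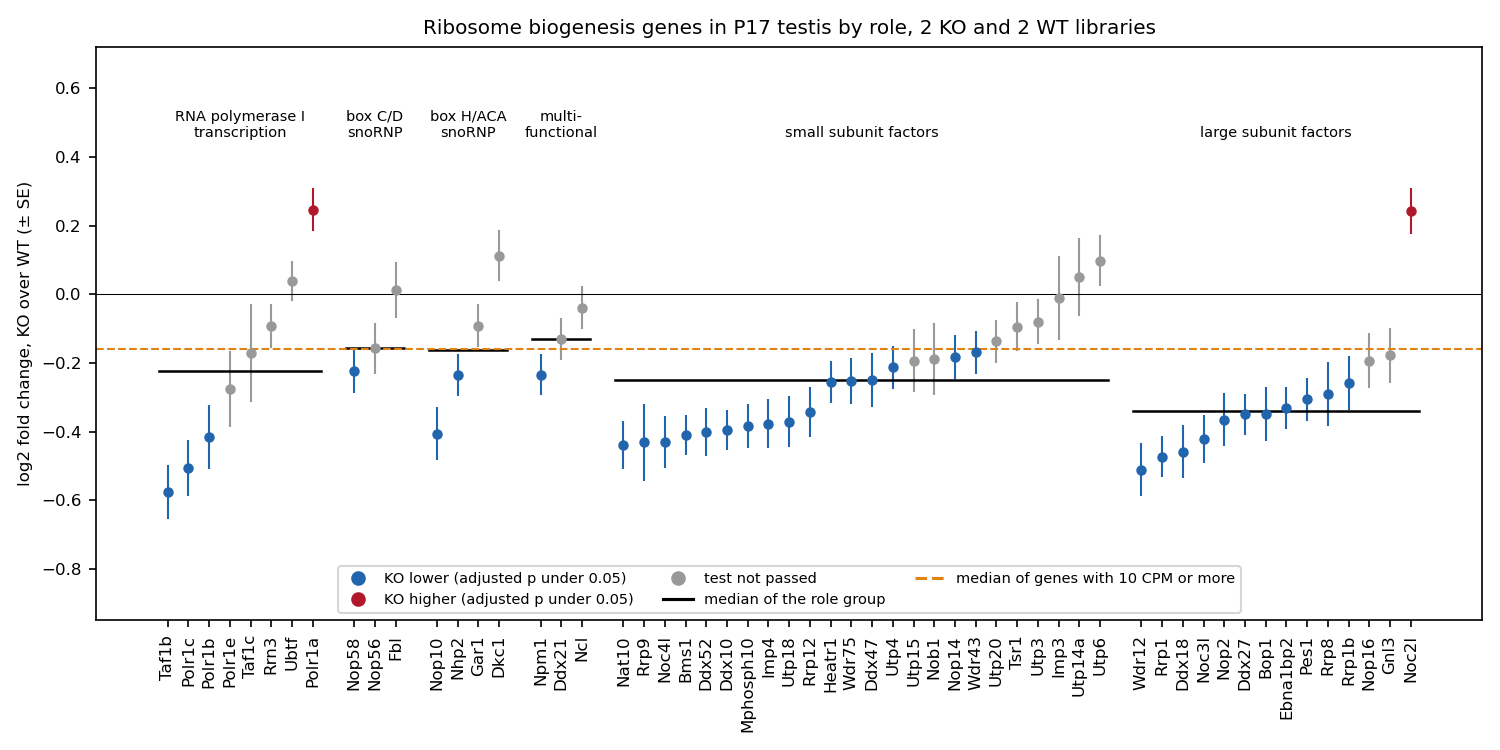
Log2 fold change (KO over WT, y axis) of the 56 genes, grouped by role and ordered within each role on the x axis. Points are edgeR estimates with their SE, black lines are the medians of the role groups, and the dashed line is the median of genes with 10 CPM or more (-0.16). Most points lie below 0, Polr1a and Noc2l stand above it, and the large subunit factors have the lowest group median (-0.34).

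Of the 8 genes of RNA polymerase I transcription, 3 (37.5%) were lower in KO, 1 (12.5%) was higher and 4 did not pass the test, with a median log2 fold change of -0.22. These shares are near those of genes with 10 CPM or more (42.0% lower and 9.03% higher). Taf1b, a subunit of the selectivity factor that recruits RNA polymerase I to the rDNA promoter, had 33.6 and 32.6 CPM in KO, against 48.9 and 49.7 CPM in WT. Both KO libraries were lower, and the log2 fold change of -0.58 ± 0.0791 was the lowest of the 56 (edgeR adjusted p = 5.86e-06). Taf1c, of the same factor, had 9.11 and 11.5 CPM in KO, against 10.6 and 12.6 CPM in WT, and the genotypes overlapped (-0.17 ± 0.142, adjusted p = 0.371 by edgeR). A pseudogene, Rps13-ps4, overlaps Taf1c on the same strand, and reads that fall on both were left out of the counts.

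Subunits of the polymerase went in opposite directions. Polr1a, the largest subunit and part of the catalytic centre, had 130 and 134 CPM in KO, against 115 and 108 CPM in WT, with both KO libraries higher (0.25 ± 0.0624, edgeR adjusted p = 0.00408). Polr1b, the other large subunit of that centre, had 23.5 and 27.6 CPM in KO, against 34.3 and 34.0 CPM in WT, with both KO libraries lower (-0.42 ± 0.0932, adjusted p = 0.00142 by edgeR). Polr1c, a subunit shared with RNA polymerase III, had 32.6 and 30.3 CPM in KO, against 44.2 and 45.0 CPM in WT, and was also lower (-0.51 ± 0.0822, edgeR adjusted p = 4.64e-05). The call for Polr1a was lost without KO replicate 2 (edgeR adjusted p = 0.0776), without WT replicate 2 (adjusted p = 0.147 by edgeR), without the filter on low counts and with scaling to Sertoli cell markers, under which its log2 fold change was at its lowest (0.10). Those of Taf1b, Polr1b and Polr1c held under all 12 other settings. Polr1e, a subunit specific to RNA polymerase I, had a log2 fold change of -0.28 ± 0.11 and did not pass (edgeR adjusted p = 0.0598). It was called lower with median-of-ratios scaling, with scaling to Sertoli cell markers and without the filter. Background subtraction, a replicate block and leaving out KO replicate 1 each gave that call too.

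Of the 4 factors that bring the polymerase to rDNA, Taf1b was lower, as given above, and 3 did not pass. Ubtf, which binds along active rDNA repeats, had 255 and 256 CPM in KO, against 249 and 249 CPM in WT, with both KO libraries higher, which did not pass the test (0.04 ± 0.0579, with an approximate 95% interval of -0.07 to 0.15). Rrn3, which links the polymerase to the promoter and had the highest length-scaled level of this role, had 187 and 173 CPM in KO, against 200 and 184 CPM in WT, and the genotypes overlapped (-0.09 ± 0.0631, interval -0.22 to 0.03). Rrn3 was called lower without KO replicate 1 (-0.17) and with scaling to Sertoli cell markers.

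Among the proteins of box C/D snoRNPs, 1 of 3 was lower in KO and the median was -0.16, equal to that of well expressed genes. Of the well expressed genes, 42.0% were called lower. Nop58, a core protein of these particles, had 165 and 147 CPM in KO, against 183 and 181 CPM in WT (-0.22 ± 0.0631, edgeR adjusted p = 0.00903). Both KO libraries were lower, although they differed from each other more than the WT libraries did. The call of Nop58 was lost with TMM scaling computed on genes with 10 CPM or more. Nop56, its partner, did not pass (-0.16 ± 0.0751) but was called lower without KO replicate 1 (-0.24) and with scaling to Sertoli cell markers. The methyltransferase gene Fbl did not pass either, and its 38.7 and 38.3 CPM in KO overlapped the 39.9 and 36.6 CPM in WT (0.01 ± 0.0822, interval -0.15 to 0.17).

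Of the 4 core proteins of box H/ACA snoRNPs, which also belong to telomerase, 2 were lower and 2 did not pass (median -0.16). This share is near the 42.0% called lower among genes with 10 CPM or more. Nop10 had 39.9 and 38.4 CPM in KO, against 51.9 and 51.9 CPM in WT, with both KO libraries lower (-0.41 ± 0.0765, edgeR adjusted p = 0.00025). Nhp2 had 117 and 113 CPM in KO, against 140 and 131 CPM in WT, and was also lower (-0.24 ± 0.0622, adjusted p = 0.00563 by edgeR). Its call was lost with TMM scaling computed on genes with 10 CPM or more. Dkc1, the pseudouridine synthase and an X-linked gene, had 49.9 ± 0.151 CPM in KO, against 46.2 ± 0.723 CPM in WT (SD, n = 2 each). Its KO libraries were both higher, but the difference did not pass (0.11 ± 0.0746, interval -0.03 to 0.26). Gar1 also missed the threshold (-0.09 ± 0.0628).

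Of the 3 abundant multifunctional nucleolar proteins, Npm1 was lower and Ncl and Ddx21 did not pass (median -0.13). Among genes with 10 CPM or more, 42.0% were called lower. Npm1, nucleophosmin, a chaperone of histones and ribosomal proteins, had 491 and 482 CPM in KO, against 569 and 574 CPM in WT, with no overlap (-0.23 ± 0.0588, edgeR adjusted p = 0.00376). This call was lost without WT replicate 2 (-0.24) and with TMM scaling computed on genes with 10 CPM or more. Ddx21 was called lower without KO replicate 1 and, like Ncl, with scaling to Sertoli cell markers. Ncl, nucleolin, which binds rRNA precursors, had 1342 and 1268 CPM in KO, against 1349 and 1333 CPM in WT, and the genotypes overlapped (-0.04 ± 0.0627, interval -0.16 to 0.08). The helicase gene Ddx21 had a log2 fold change of -0.13 ± 0.0603.

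Small subunit factors formed the largest role, with 16 of 24 lower in KO, 0 higher and 8 not passing (median -0.25). The share called lower was 66.7%, against 42.0% of genes with 10 CPM or more. For 21 of the 24 (87.5%) both KO libraries lay below both WT libraries, against 58.2% of those genes. Nat10, the enzyme that acetylates small subunit rRNA, had 64.0 and 62.3 CPM in KO, against 82.1 and 89.0 CPM in WT (-0.44 ± 0.0691, edgeR adjusted p = 3.13e-05). Noc4l, whose yeast relative acts with Nop14 in small subunit assembly, had 39.8 and 41.5 CPM in KO, against 53.6 and 56 CPM in WT, again with no overlap (-0.43 ± 0.0762, adjusted p = 0.000126 by edgeR). Rrp9, a protein of the U3 snoRNP that base-pairs with the rRNA precursor, had 20.3 and 27.8 CPM in KO, against 32.3 and 32.8 CPM in WT. Its KO libraries were both lower but wide apart (-0.43 ± 0.112, edgeR adjusted p = 0.00636). The call was lost without KO replicate 1 (-0.25) and with TMM scaling computed on genes with 10 CPM or more. The helicase gene Ddx10, the highest of this role per length of exon, had 175 and 170 CPM in KO, against 222 and 231 CPM in WT (-0.39 ± 0.0592, adjusted p = 1.77e-05 by edgeR). Both KO libraries of Ddx10 were lower.

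Within this role, each early scaffold complex held genes that were lower and genes that did not pass the test. Of the 5 genes of the UTP-A complex, which joins rRNA transcription to processing, 4 were lower: Heatr1 (-0.26), Wdr75 (-0.25), Utp4 (-0.21) and Wdr43 (-0.17), while Utp15 (-0.19 ± 0.0907) did not pass. The share called lower among genes with 10 CPM or more was 42.0%. The call of Heatr1 held with each library left out in turn. With TMM scaling computed on genes with 10 CPM or more, the calls of Heatr1, Wdr75, Utp4 and Wdr43 were all lost. Without WT replicate 2, the calls of Utp4, Wdr75 and Wdr43 were lost (edgeR adjusted p = 0.162, 0.159 and 0.0741), that of Wdr43 also without KO replicate 1 or WT replicate 1 (0.0539 and 0.127), and Utp15 was called without KO replicate 1 (0.0482). Of the UTP-B pair, Utp18 was lower, with 55.1 and 50.1 CPM in KO, against 69.6 and 66.4 CPM in WT (-0.37 ± 0.0737), and Utp6 had 55.9 and 52.5 CPM in KO, against 51.7 and 49.6 CPM in WT, and did not pass (0.10 ± 0.0743). In the complex named after Mpp10, Mphosph10 and Imp4 were lower (-0.38 each), with 101 and 111 CPM of Mphosph10 in KO, against 135 and 141 CPM in WT. Imp3, their partner, was at 15.5 and 13.3 CPM in KO, against 15.4 and 13.7 CPM in WT, and overlapped (-0.01 ± 0.122). Partners in a complex thus had different values, but differences between genes were not tested.

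Several other factors of small subunit assembly were lower too. The GTPase gene Bms1 had 252 and 251 CPM in KO, against 329 and 340 CPM in WT, with no overlap (-0.41 ± 0.0585, edgeR adjusted p = 9.51e-06). Rrp12 (-0.34 ± 0.0731), a HEAT repeat protein of subunit export in yeast, and the helicase genes Ddx52 (-0.40 ± 0.0692) and Ddx47 (-0.25 ± 0.0788) were lower, as was Nop14 (-0.18 ± 0.064). Without WT replicate 2 the calls of Ddx47 and Nop14 were lost (edgeR adjusted p = 0.0572 and 0.181), and that of Nop14 also without KO replicate 2 (0.0536). Nob1, the endonuclease that makes the mature 3′ end of small subunit rRNA, had a log2 fold change of -0.19 ± 0.105 and Tsr1, an assembly factor related to Bms1, of -0.09 ± 0.0716, and neither passed. The remaining genes that did not pass were Utp20 (-0.14 ± 0.0622), Utp3 (-0.08 ± 0.065) and the X-linked Utp14a (0.05 ± 0.113). Without KO replicate 2, Utp20 and Nob1 were called lower (edgeR adjusted p = 0.0220 and 0.0194).

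Large subunit factors had the lowest median of the roles (-0.34). Of 14 genes, 11 (78.6%) were lower in KO, 1 was higher and 2 did not pass, against 42.0% lower among genes with 10 CPM or more. For 13 (92.9%) both KO libraries lay below both WT libraries, against 58.2% of those genes. All 3 genes of the PeBoW complex, which is required for processing of large subunit rRNA, were lower. Wdr12 had 36.2 and 37.2 CPM in KO, against 52.5 and 52.1 CPM in WT (-0.51 ± 0.077, edgeR adjusted p = 1.93e-05), Bop1 had a log2 fold change of -0.35 ± 0.0775 and Pes1 of -0.31 ± 0.0629. KO and WT libraries did not overlap for any of these 3 genes. With TMM scaling computed on genes with 10 CPM or more, the calls of Bop1 and Pes1 were lost, while that of Wdr12 held. Rrp1, an early large subunit factor in yeast and the highest of this role per length of exon, had 205 and 198 CPM in KO, against 272 and 287 CPM in WT, again apart (-0.47 ± 0.0597, adjusted p = 1.89e-06 by edgeR). Its relative Rrp1b was lower by less (-0.26 ± 0.0795). The helicase gene Ddx18 had 42.3 and 38.9 CPM in KO, against 54.3 and 57.2 CPM in WT (-0.46 ± 0.0777, edgeR adjusted p = 7.71e-05), and Ddx27 had a log2 fold change of -0.35 ± 0.0595. Of the 6 DEAD-box helicase genes in the set, 5 were lower in KO (median -0.37), Ddx21 being the exception.

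Genes of the Noc family differed in direction. Noc2l, which in yeast pairs with Noc3 on large subunit precursors and in mammals also binds histones, had 76.0 and 79.3 CPM in KO, against 65.8 and 65.5 CPM in WT. Both KO libraries were higher (0.24 ± 0.0672, edgeR adjusted p = 0.00782). This call was lost when KO replicate 2, WT replicate 1 or WT replicate 2 was left out (edgeR adjusted p = 0.179, 0.0847 and 0.0833), without the filter on low counts and with scaling to Sertoli cell markers. Noc3l had 54.6 and 52.5 CPM in KO, against 72.3 and 71.2 CPM in WT, and was lower (-0.42 ± 0.07). The rRNA methyltransferase genes Nop2 (-0.37 ± 0.0773) and Rrp8 (-0.29 ± 0.0931) were lower, as was the assembly factor gene Ebna1bp2 (-0.33 ± 0.0611). Nop16 (-0.19 ± 0.0802, edgeR adjusted p = 0.0672) and Gnl3, nucleostemin, a GTP-binding nucleolar protein (-0.18 ± 0.0801, adjusted p = 0.0928 by edgeR), did not pass. Nop16 was called lower with median-of-ratios or Sertoli scaling, without a filter, with a replicate block and without WT replicate 2. Gnl3 was called lower with Sertoli scaling, without a filter and without KO replicate 2. Rrp8 lost its call with DESeq2, with TMM on genes with 10 CPM or more and with the filter of 1 CPM in 2 libraries. It also lost the call without KO replicate 1 or WT replicate 2.

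**Figure D2:**
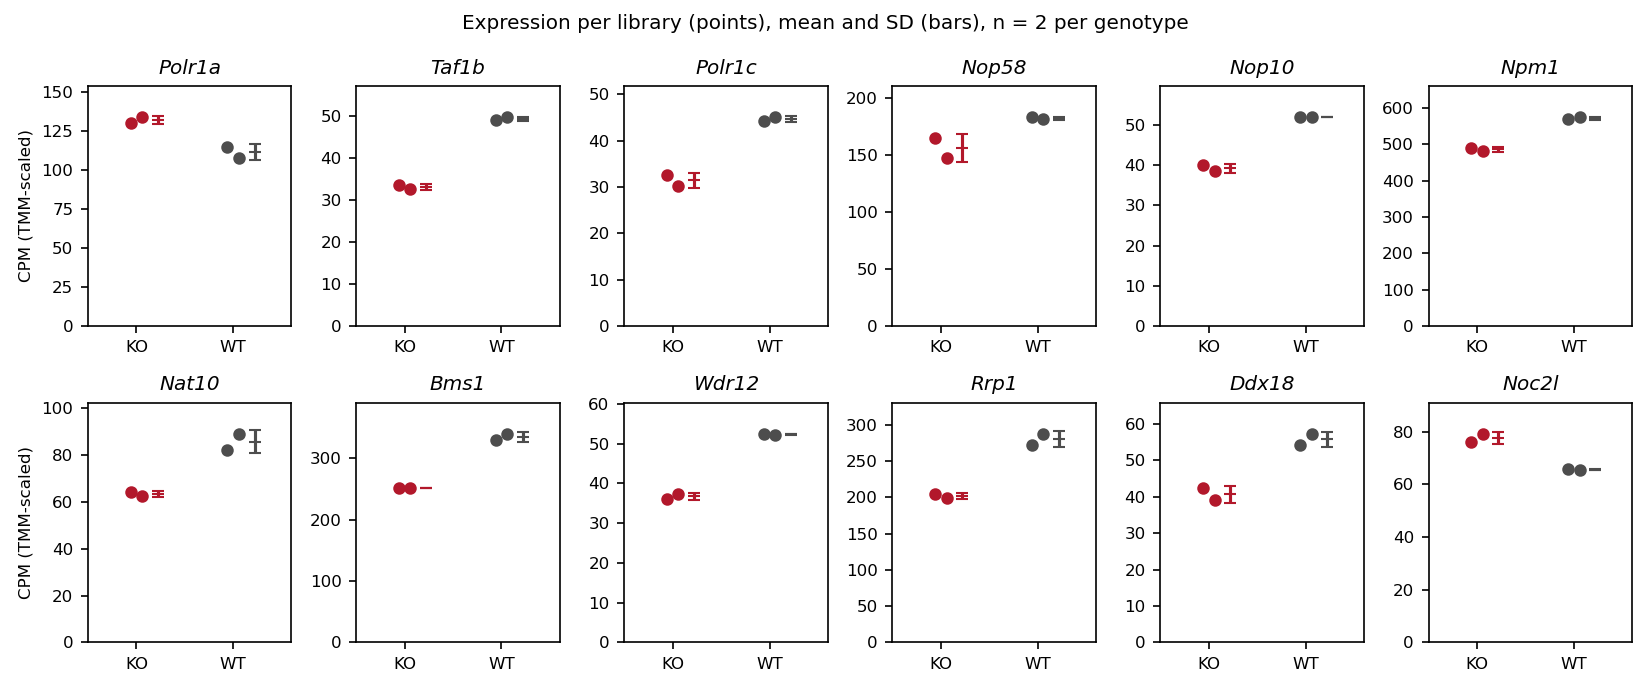
Expression per library (CPM on TMM-scaled library sizes, y axes starting at 0) of 12 genes from all roles, KO left and WT right in each panel. Points are libraries, and bars are the mean and SD (n = 2). KO points lie above WT points for Polr1a and Noc2l and below them for the other 10 genes.

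Per kilobase of exon, the set spanned a wide range of levels. The median over the 56 genes was 16.9 CPM per kilobase, against 1.84 over all genes tested, and all 56 lay above the latter value. The highest was Npm1, at 182 ± 2.33 in KO and 215 ± 1.35 in WT (CPM per kilobase, SD, n = 2), and the next were Ncl (128 ± 5.14 in KO and 132 ± 1.10 in WT) and Nhp2 (100.4 ± 2.04 in KO and 118 ± 5.28 in WT). Rrp1, Ddx10 and Bms1 followed with averages over both genotypes of 72.1, 63.7 and 60.4. The lowest were Wdr12 (3.07 ± 0.0645 in KO and 4.37 ± 0.0201 in WT) and Taf1c (2.95 ± 0.487 in KO and 3.32 ± 0.396 in WT). The order of these last 2 held in both genotypes, but their KO values did not differ beyond their spread. Exon length is the union over all annotated transcripts, retained introns included, so levels of genes with such transcripts are low on this scale. The 28 genes under the set's median CPM per kilobase had a median log2 fold change of -0.24, and the other 28 of -0.28. A relation of fold change to level was not tested.

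**Figure D3:**
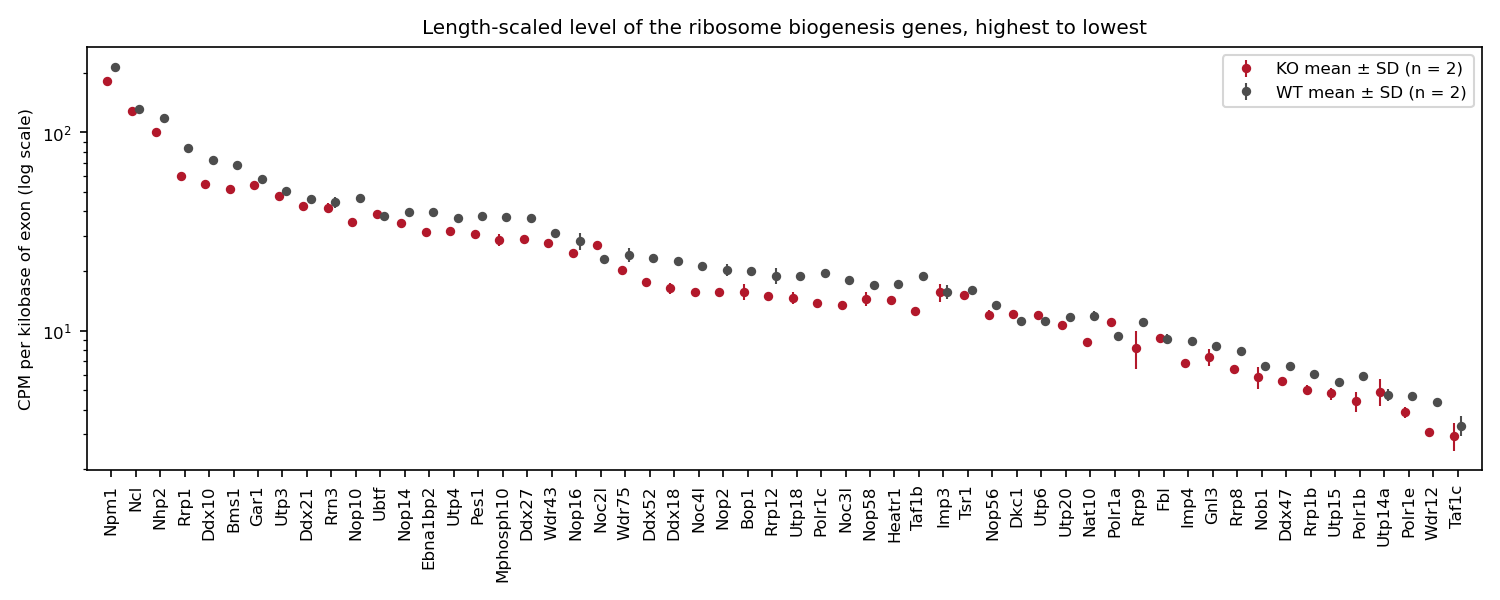
Length-scaled level (CPM per kilobase of exon, log scale, y axis) of the 56 genes, ordered from high to low. Points are means with their SD (n = 2) for KO and WT. Npm1, Ncl and Nhp2 lead, and Taf1c is the lowest.

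A further list of 94 ribosome biogenesis genes outside the set gave like values. Of the 93 tested, 58 (62.4%) were lower in KO, 0 were higher at an adjusted p under 0.05 by edgeR and 35 did not pass, with a median log2 fold change of -0.26. DESeq2 also called 0 of them higher, and 54 lower. For 84 of the 93 (90.3%), both KO libraries lay below both WT libraries. Among genes with 10 CPM or more, 42.0% were called lower and 58.2% lay below. Of the polymerase I genes 6 of 10 were lower, with Taf1d (-0.45), Polr1d (-0.37), Ttf1 (-0.37) and Baz2a (-0.36) lowest. All 5 genes listed with the box C/D particles were lower, among them the assembly factor genes Znhit3 (-0.58), Nufip1 (-0.35) and Znhit6 (-0.35) and the core protein gene Snu13 (-0.37). The fifth, Nop53, is better known as a large subunit factor. Naf1, an assembly factor of box H/ACA particles, was lower (-0.43) and Shq1 did not pass. Of the small subunit genes 20 of 35 were lower, and Nop9 had 76.5 and 67.5 CPM in KO, against 114 and 114 CPM in WT (-0.67 ± 0.0686). Wdr46 (-0.49), Ngdn (-0.47) and Rcl1 (-0.46) followed. Of the large subunit genes 26 of 41 were lower. Lyar, a nucleolar protein known for its high level in testis, had 1150 and 930 CPM in KO, against 1717 and 1710 CPM in WT (-0.72 ± 0.08), the lowest log2 fold change of either list, ahead of Nol8 (-0.46), Ddx56 (-0.45) and Wdr18 (-0.45).

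Marker genes of several testis cell types differed between the genotypes in the same libraries. Among genes with 10 CPM or more, 42.0% were called lower and 9.03% higher, and among all genes tested 20.3% and 11.6%. Of 15 markers of pachytene spermatocytes, 14 were lower in KO (median -0.86), and their sum was 4255 and 3866 CPM in KO, against 6517 and 6808 CPM in WT. Of 15 markers of early meiotic prophase, 14 were lower (median -0.40), with sums of 3330 and 3287 CPM in KO, against 4525 and 4662 CPM in WT. Of 15 markers of spermatogonia, 7 (46.7%) were lower (median -0.29), a share near that of genes with 10 CPM or more. Their sums were 1733 and 1748 CPM in KO, against 2278 and 2326 CPM in WT. Of 15 Sertoli cell markers, 5 were higher in KO and 0 lower (median 0.16), with sums of 7813 and 7670 CPM in KO, against 7128 and 6894 CPM in WT. All 8 macrophage markers were higher (median 0.75), with sums of 230 and 223 CPM in KO, against 131 and 131 CPM in WT. Of 8 Leydig cell markers 3 were higher and 2 lower, with sums of 580 and 603 CPM in KO, against 548 and 553 CPM in WT. Of 6 peritubular myoid markers 2 were higher and 1 lower, with sums of 922 and 961 CPM in KO, against 872 and 934 CPM in WT. Of 5 endothelial markers 2 were higher and 0 lower, with sums of 147 and 139 CPM in KO, against 126 and 126 CPM in WT. All 3 tested of 5 red blood cell markers were lower (median -1.42), with sums of 5.32 and 4.66 CPM in KO, against 10.7 and 13.6 CPM in WT. No marker was at 0 in all libraries, but background also adds reads to genes, so this says little about the cells present. Acrv1, listed for pachytene spermatocytes, had 8 and 21 reads in KO, against 13 and 8 in WT. Background accounted for 98.2% of them in KO and 95.9% in WT. The part of cell composition in the values of the 56 genes was not tested.

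The median of the set depended on how libraries were scaled. Its distance from the well expressed genes cannot show such a dependence, since a change of scaling moves all genes by nearly the same amount. Over 12 other settings the median log2 fold change of the 56 genes was negative throughout, from -0.40 with scaling to Sertoli cell markers to -0.10 with TMM scaling computed on genes with 10 CPM or more. In the same fits the median of genes with 10 CPM or more was -0.30 and -0.00. Over all 12 settings the gap between the medians stayed within -0.10 and -0.08, against -0.09 in the values above. The median of the genes past the filter was -0.09 with Sertoli scaling, 0.21 with scaling on the well expressed genes and -0.10 after background subtraction, each over 0.1 from 0.05, and -0.02 in the fit without a filter. Counts of calls followed the scaling. With TMM on the well expressed genes, 20 of the 56 were lower and 5 higher, against 24.4% and 23.0% of genes with 10 CPM or more. With Sertoli scaling 47 were lower and 0 higher, against 59.1% and 2.69% of those genes. Without a filter 37 were lower and 0 higher, against 46.4% and 3.87%, and DESeq2 called 31 lower and 2 higher, against 37.7% and 5.21%. Of the 34 genes called lower, 20 kept their call in all 12 settings, and of the 2 called higher, 0 did. The genes called lower that lost their call all did so with TMM on the well expressed genes. They were Nop58, Nhp2, Npm1, Utp4, Rrp9, Ddx47, Nop14, Heatr1, Wdr43, Wdr75, Bop1, Pes1, Rrp1b and Rrp8. That scaling also called Ubtf, Dkc1 and Utp6 higher. With DESeq2 the calls of Nop14, Wdr43 and Rrp8 were lost. With the filter of 1 CPM in 2 libraries those of Utp4, Ddx47, Nop14, Wdr43, Rrp1b and Rrp8 were lost. Sertoli scaling added lower calls for Polr1e, Rrn3, Nop56, Gar1, Ncl, Ddx21, Utp3, Utp15, Utp20, Nob1, Tsr1, Nop16 and Gnl3.

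**Figure D4:**
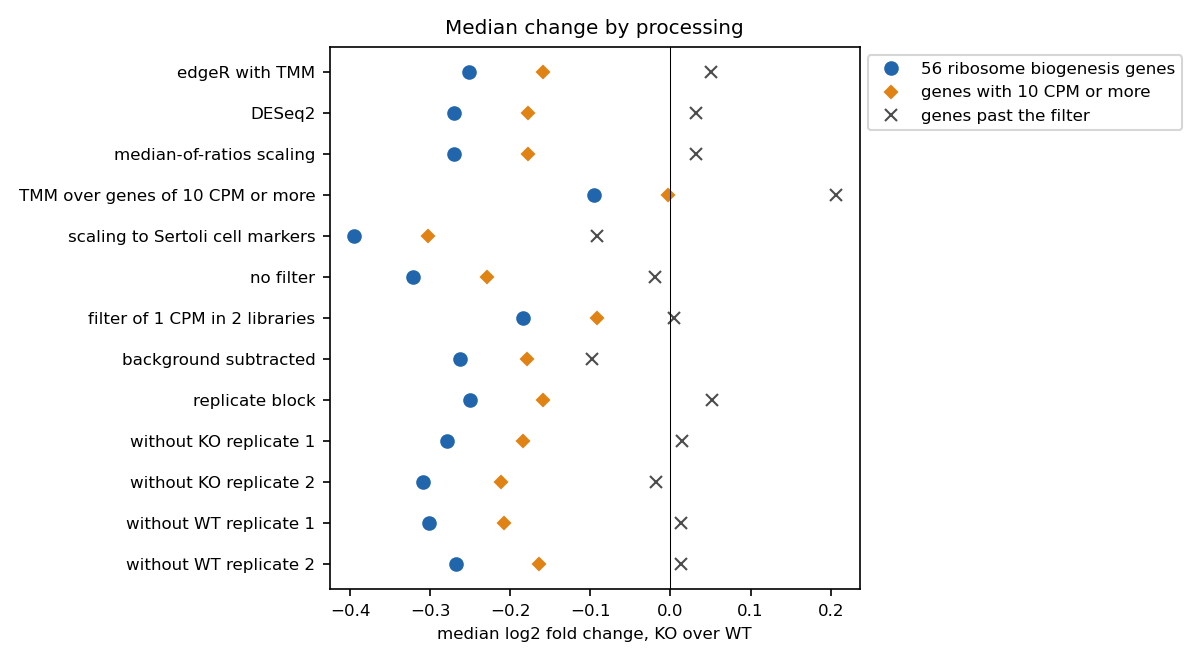
Median log2 fold change (KO over WT, x axis) of the 56 genes, of genes with 10 CPM or more and of the genes past the filter, for edgeR with TMM scaling (top row) and 12 other settings (rows). Circles of the 56 genes lie left of 0 and left of the diamonds of the well expressed genes in every row. A change of scaling alone moves circles and diamonds by nearly the same amount.

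Reads in the 3000 bases upstream of genes gave a separate readout. Many promoters also make short-lived antisense RNA, which the nuclear exosome degrades. Regions were counted for 29 of the 56 genes. Of the 16 genes with the start of a gene on the other strand between 200 bases downstream and 1000 bases upstream of their own start, 0 had a region. On the antisense strand 26 regions were tested, and 8 were higher in KO and 0 lower by edgeR, with gene table library scaling, against 7.64% of all 17637 regions higher and 0.0964% lower. Their median log2 fold change was 0.92, against 0.92 over all regions. Among regions with at least 2 times the background reads, 7 of 20 (35.0%) were higher, against 20.8% of 3393 regions, and the medians were 0.92 and 0.73. Reads were summed over all libraries for that filter, so a region could pass it through its KO reads alone. These shares and medians are therefore not independent of the filter. After background subtraction the median was 0.88 over the 26 regions and 0.64 over all regions. The difference between these regions and the rest was not tested.

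Regions upstream of snoRNP genes gave 3 of the 8 calls. Gar1 had 88 and 86 antisense reads in KO, against 43 and 59 in the deeper WT libraries (log2 fold change 1.57 ± 0.248, edgeR adjusted p = 0.00106). Nop58 had 41 and 30 reads in KO, against 11 and 5 in WT (2.91 ± 0.497, adjusted p = 0.00205 by edgeR), and Nop56 had 71 and 47 in KO, against 13 and 45 in WT (1.87 ± 0.388, edgeR adjusted p = 0.00876). Once scaled for library size, all KO values of these 3 genes lay above all WT values. The other 5 calls were Wdr75 (2.44 ± 0.476), Utp14a (2.37 ± 0.589), Ddx27 (1.90 ± 0.488), Ddx52 (1.81 ± 0.425) and Rrn3 (0.89 ± 0.225). Of the mRNAs of these 8 genes, 4 were called lower (Nop58, Wdr75, Ddx27 and Ddx52), 4 did not pass and 0 were higher (edgeR, adjusted p under 0.05), with log2 fold changes between -0.40 for Ddx52 and 0.05 for Utp14a. Among genes with 10 CPM or more, 42.0% were called lower.

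Several of these regions held few reads. Background was 9.04 and 10.2 antisense reads per region in KO and 8.05 and 7.60 in WT. On the library scale of the calls it was 0.496 and 0.494 CPM per region in KO, against 0.272 and 0.200 CPM in WT, so the background was itself higher in KO. Utp14a, for example, had 24 and 19 reads in KO, against 9 and 5 in WT. After that background was subtracted, a step added once the data had been seen, 5 regions were higher, against 2.36% of all regions. Ddx52, Utp14a and Ddx27 no longer passed (edgeR adjusted p = 0.0605, 0.176 and 0.231), while their log2 fold changes became larger (2.38, 4.97 and 2.50). Subtraction left few WT reads in these regions, 1.95 and 13.4 for Ddx52, 0.95 and -2.60 for Utp14a and -2.05 and 11.4 for Ddx27. Negative values were set to 0, so the larger fold changes rest on few WT reads. Summed over the 29 regions, antisense reads above background came to 50.3 and 44.2 CPM in KO, against 30.9 and 33.3 CPM in WT. The region of Polr1e held a large share, with 309 and 395 reads in KO, against 557 and 719 in WT, and did not pass (-0.06 ± 0.159). Without it the sums were 33.8 and 25.5 CPM in KO, against 12.4 and 14.6 CPM in WT. Scaled on the upstream table itself, which takes out a shift shared by all regions, 0 of the 26 regions were called by edgeR, against 0.272% of all regions called higher (15 of the 26 had an unadjusted p under 0.05 with gene table scaling). With single libraries left out the count ranged from 4 without KO replicate 1, against 1.84% of all regions, to 13 without WT replicate 1, against 23.3%.

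**Figure D5:**
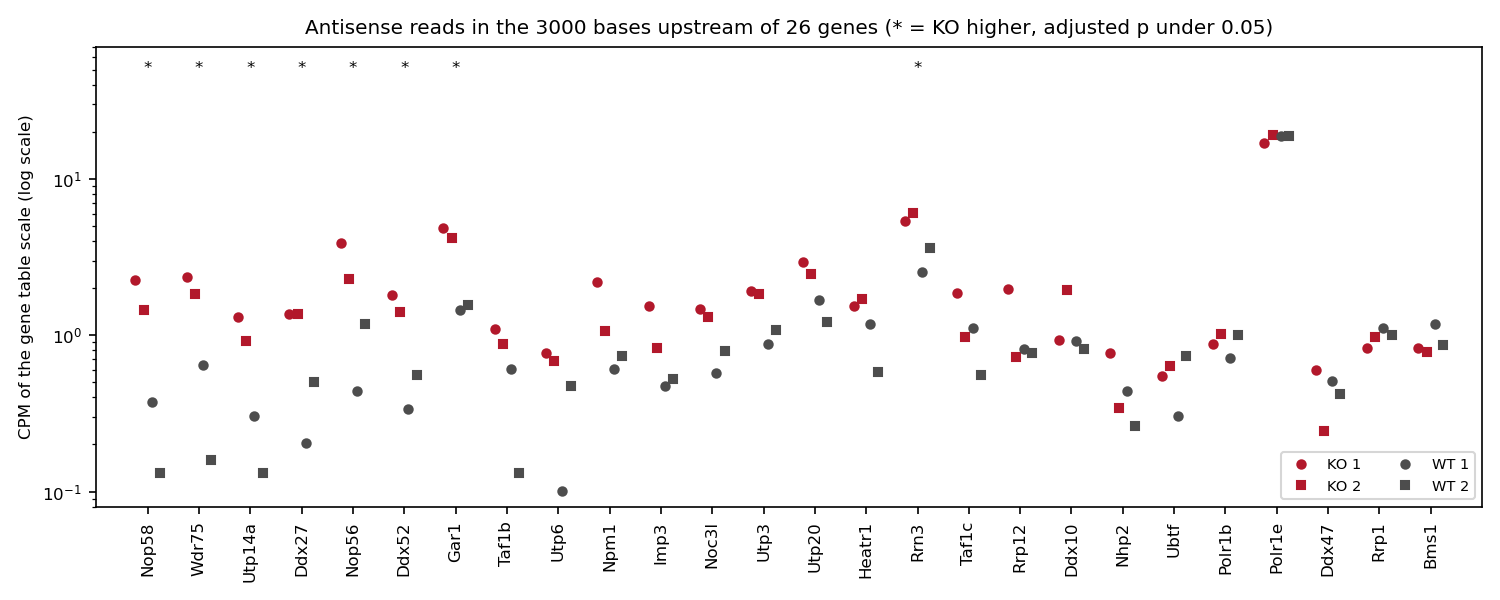
Antisense reads in the 3000 bases upstream of 26 genes, as CPM on the library scale of the gene table (log scale, y axis), ordered by log2 fold change. Points are single libraries (KO red, WT grey) and asterisks mark the 8 regions higher in KO. Polr1e stands above the rest in all 4 libraries without a difference by genotype.

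On the sense strand, 24 regions were tested and 0 passed by edgeR, with 3 at an unadjusted p under 0.05, against 0.0382% of all 18344 regions higher and 0.0164% lower. The regions with the smallest p were those of Gar1 (log2 fold change 3.03, edgeR adjusted p = 0.0957), Ddx18 (2.27, adjusted p = 0.122 by edgeR) and Ubtf (0.79, edgeR adjusted p = 0.185). Their median was 0.43, against 0.85 over all regions. Summed over the 29 regions, sense reads came to 26.5 and 26.7 CPM in KO, against 25.7 and 23.3 CPM in WT. The order turned round once background was subtracted, to 12.1 and 12.4 CPM in KO, against 17.7 and 17.5 CPM in WT. The Ddx10 region held a large share of these sums, and without it they were 4.92 and 5.98 CPM in KO, against 8.19 and 9.77 CPM in WT.

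Genes of the set also carry snoRNAs in their introns. On their own strand, 7 of them (Nop56, Nop58, Dkc1, Ncl, Tsr1, Wdr43 and Gnl3) hold 21 annotated snoRNA genes, of which 0 had enough reads to be tested. Summed over the 21, reads were 40 and 21 in KO, against 18 and 12 in the deeper WT libraries. Snord11 in Nop58 had 14 and 6 reads in KO, against 1 and 0 in WT, and Gm22858 in Wdr43 had 14 and 4 in KO, against 0 and 1 in WT. These counts are small, and reads of an unspliced host transcript cannot be told apart from reads of the snoRNA. Of the 7 host genes, 2 were lower in KO (Nop58 and Wdr43), against 42.0% of genes with 10 CPM or more. The median of the 7 host genes was -0.16, against -0.28 over the other 49.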

How the data were processed

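The 4 RNA libraries, 2 KO and 2 WT, were made from testes. The values are read counts, made by the authors with featureCounts 1.6.4 on the strand of the gene over GENCODE M18 exons, per the file headers, and in 3000-base upstream regions on either strand. The recorded commands hold no option for reads that map to several places or overlap several genes, so these were not counted, and genes with near-identical copies come out too low. The submitters' processing notes list cutadapt, HISAT2 and the build GRCm38.p5 without saying how they were used. Per the labels' protocols, cDNA synthesis used poly(T) and random primers, followed by strand selection and depletion of targeted transcripts, while the molecule is labelled polyA RNA.

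The test was that of edgeR 4.0.16, run in R 4.3.3 (filterByExpr, TMM, robust quasi-likelihood fit, genotype as the only term, Benjamini-Hochberg adjustment, threshold 0.05). The SE is the log2 fold change divided by the square root of F, and intervals of 95% are 1.96 SE to either side. Upstream regions used the library scale of the gene table. TMM factors were 1.04 and 1.07 in KO replicates 1 and 2 and 0.955 and 0.942 in WT replicates 1 and 2. The chi-square between replicates, divided by its degrees of freedom, was 5.08 in KO and 4.54 in WT, more than sampling noise gives, so all libraries were kept as separate samples. Symbols came from GENCODE M21 and matched 99.72% of gene IDs. Background is a trimmed mean (share of 0.25 removed at each end) over the regions upstream of 14248 autosomal genes outside the filter. The fit was tested on simulated counts.

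The 56 genes, their roles, the further lists and the tests were chosen with earlier results of these data known. Every gene of the set could be named. Values of every library are given for the 3 called genes per role with the largest absolute log2 fold change, the gene per role with the highest length-scaled level, genes called higher and Dis3, and for others chosen after their values were seen. From the further list, up to 4 called genes per role are named, and from the upstream tables every called region or else the 3 with the smallest p. The settings varied were the tool (DESeq2 1.42.0), the scaling (median of ratios, TMM on genes with 10 CPM or more, Sertoli cell markers), the filter (none, or 1 CPM in 2 libraries), subtraction of background, a replicate block and the libraries included.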

Additional observations from a re-analysis of the deposited data

How the results depend on the processing

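No gene of the set changed direction while called under any of the 12 settings tried. TMM scaling on genes with 10 CPM or more gave 20 members lower and 5 higher, 25 genes of the further list lower and 2 higher, and by role 0 box C/D, 1 box H/ACA, 0 multifunctional, 9 small subunit and 7 large subunit genes lower. Scaling to Sertoli cell markers gave 0 members higher, and 5 polymerase I, 2 box C/D and 3 multifunctional genes lower. Without a filter 0 members were higher and 1 upstream sense region was called. Antisense regions higher in KO were 5 after background subtraction, which was added after seeing the data, and 0 when the table was scaled on itself. The cause of these shifts was not tested.

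Leaving out single libraries gave 28 to 36 members lower and 0 to 2 higher, 3 to 5 polymerase I, 1 to 2 box C/D and 0 to 2 multifunctional genes lower, 0 to 4 sense regions and 4 to 13 antisense regions. The 4 sense regions came without WT replicate 1, where 16.9% of all sense regions were higher in KO. A lone library is then assumed to vary like the others. With a replicate block, 36 members (64.3%) were lower and 2 (3.57%) higher, and 59 genes of the further list (63.4%) were lower. Among genes with 10 CPM or more, 44.7% were lower and 10.4% higher in that fit. Deviations of same-numbered libraries correlated at 0.0141 over all genes tested and 0.137 over genes with 10 CPM or more. With only 2 pairs, this cannot show whether same-numbered libraries share more than a number. With 2 libraries per genotype small differences may be missed.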
